A study of Mus musculus with 8 samples.

Results

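The genes described are those of fibroblast growth factor (FGF) signalling and of the feedback that limits the MAP kinase cascade downstream of it. The set was chosen with earlier results of these data known, and its genes were taken by symbol. Every Fgf, Fgfr, Fgfbp, Spry, Spred and Dusp gene with a number was taken, together with Fgfrl1, Etv1, Etv4, Etv5, Frs2, Frs3 and Il17rd. This gave 66 of the 53170 named genes in the table, of which 22 are ligands, 5 receptors, 2 carriers, 2 adaptors, 7 feedback inhibitors, 3 ETS transcription factors and 25 dual-specificity phosphatases. Of these, 44 were counted often enough to be tested. The RNA came from organoids of mouse hindstomach (glandular stomach) epithelium taken at embryonic day 18.5 and kept for 5 days in growth medium. All 8 libraries carry Shh-Cre, a recombinase driven from the Shh locus, which is active in foregut epithelium. The 4 control libraries carry nothing else by their labels, and the 4 YAP5SA libraries also carry YAP5SA, a form of the Hippo effector YAP that the Hippo kinases cannot restrain. Separate embryos or cultures are not recorded for the 4 libraries of a group, and the p-values refer to the spread among these libraries only, part of which may be technical. The organoids kept in differentiation medium and the single-cell libraries of the study were not analysed here.

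FGFs are secreted ligands that are held and presented by heparan sulfate at the cell surface and that activate receptor tyrosine kinases. The receptors pass the signal through the FRS adaptors to RAS and the kinases RAF, MEK and ERK. ERK raises the ETS factors of the PEA3 family (Etv1, Etv4 and Etv5) and genes that dampen the signal in turn, namely the Sprouty and Spred proteins, the membrane protein Il17rd (Sef) and phosphatases such as Dusp6. In the developing foregut, FGFs pass between epithelium and mesenchyme and take part in growth and patterning.

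Total counts per library ran from 13646225 to 19668033. Xist, the RNA of the inactive X chromosome, averaged 810.8 ± 170.3 CPM (SD, n = 4) in the controls and 1.37 ± 0.99 CPM in YAP5SA, while the Y-linked gene Eif2s3y averaged 0.0683 ± 0.0497 and 101.6 ± 7.39 CPM. Sex and genotype therefore cannot be told apart in any comparison given here. Levels are given as CPM, the count divided by the scaled library total. Epithelial markers were high in both groups, with the sum of 10 genes between 8385 and 9070 CPM in controls and between 7081 and 7263 CPM in YAP5SA. The 11 markers of hindstomach epithelium summed to between 2459 and 2594 CPM in controls but only to between 24.9 and 34.4 CPM in YAP5SA. Of these, 10 were lower, and Cldn18 and Pgc averaged 2.05 and 1.08 CPM in YAP5SA. Gata4 fell 4.39-fold but kept 17.6 CPM, and Tff2 fell 2.03-fold to 3.52 CPM. Muc5ac did not pass the test (0.722 CPM in controls and 1.38 CPM in YAP5SA). The labels alone give hindstomach epithelium as the origin of the YAP5SA libraries, in which Cldn18 and Pgc were nearly absent and Gata4 was reduced. How much of any difference given here moves with the fall of these markers was not tested. In bulk RNA, fewer cells of a type and less RNA per cell cannot be told apart. Of 12 mesenchymal markers none was counted often enough to test, and their sum ran from 1.88 to 4.36 CPM in controls and from 0.718 to 1.83 CPM in YAP5SA, with Lum and Barx1 at 0 counts in all libraries. Summed markers of endothelium (15.1 to 21.3 against 9.19 to 10.5 CPM), immune cells (19.8 to 39.4 against 9.95 to 10.4 CPM), enteric neural cells (6.88 to 13.1 against 4.14 to 5.54 CPM) and mesothelium (3114 to 3563 against 1317 to 1656 CPM) were also lower in YAP5SA, but single genes carried most of these sums and the lists did not move as one. Msln fell 2.25-fold while Upk3b and Lrrn4, of the same mesothelial list, rose 4.40-fold and 2.04-fold. Tek fell 27.4-fold and Tie1 rose 31.8-fold among endothelial markers, and Cd68 fell 3.62-fold and Csf1r rose 7.46-fold among immune markers. Tie1 and Csf1r had only 3 and 13 counts over the controls together, against 109 and 98 over YAP5SA. Both were counted often enough to be tested only through YAP5SA, so they could hardly be called lower. Cldn5 and Sox10 had 0 counts in all libraries. The part of these markers in the results was not tested.

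The clearest change was an exchange of receptors. Fgfr4, which led the receptor kinases in controls per length of exon, was nearly absent from YAP5SA organoids, and Fgfr3 and Fgfr2 rose. Among ligands, Fgf9 fell and Fgf18 rose. Of the ETS factors and feedback inhibitors, Etv4, Etv5, Spry4, Spred3 and Il17rd fell and Etv1, Spry1, Spry2 and Spred1 rose. The phosphatase Dusp22 fell the most of the Dusp genes, and among the genes of ERK phosphatases Dusp6 and Dusp9 fell, while Dusp4, Dusp5 and Dusp7 did not pass the test.

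Of the 44 tested members, 33 (75%) changed at an adjusted p under 0.05, 15 higher (34.1%) and 18 lower (40.9%) in YAP5SA. Among all 14058 tested genes, 49.1% were called, 23.6% higher and 25.5% lower. Changes of at least 2-fold were called in 13 members (29.5%), against 13.8% of all tested genes, and the libraries of the groups did not overlap in 31 members (70.5%), against 45.7% of all tested genes. The median log2 fold change of the tested members was −0.13, against 0.004 over all tested genes, and their median absolute log2 fold change was 0.77, against 0.26. Tested members passed a minimum on counts, and 2 of them, Fgfr1 and Fgfr4, passed it only through the controls, so these counts describe the members that could be measured. The plot of fold changes by role shows that each role with more than 1 called gene held genes of both directions. The 22 untested members comprised 15 ligands and 7 phosphatases, 9 of them at 0 counts in all 8 libraries (Fgf3, Fgf4, Fgf6, Fgf8, Fgf12, Fgf23, Dusp21, Dusp26 and Dusp29). The highest count of an untested member in any library was 8, of Fgf21 in control 3. A gene at 0 counts may still be present at up to 0.153 to 0.225 CPM, the level of 3 counts in the deepest and the shallowest library.

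**Figure D1:**
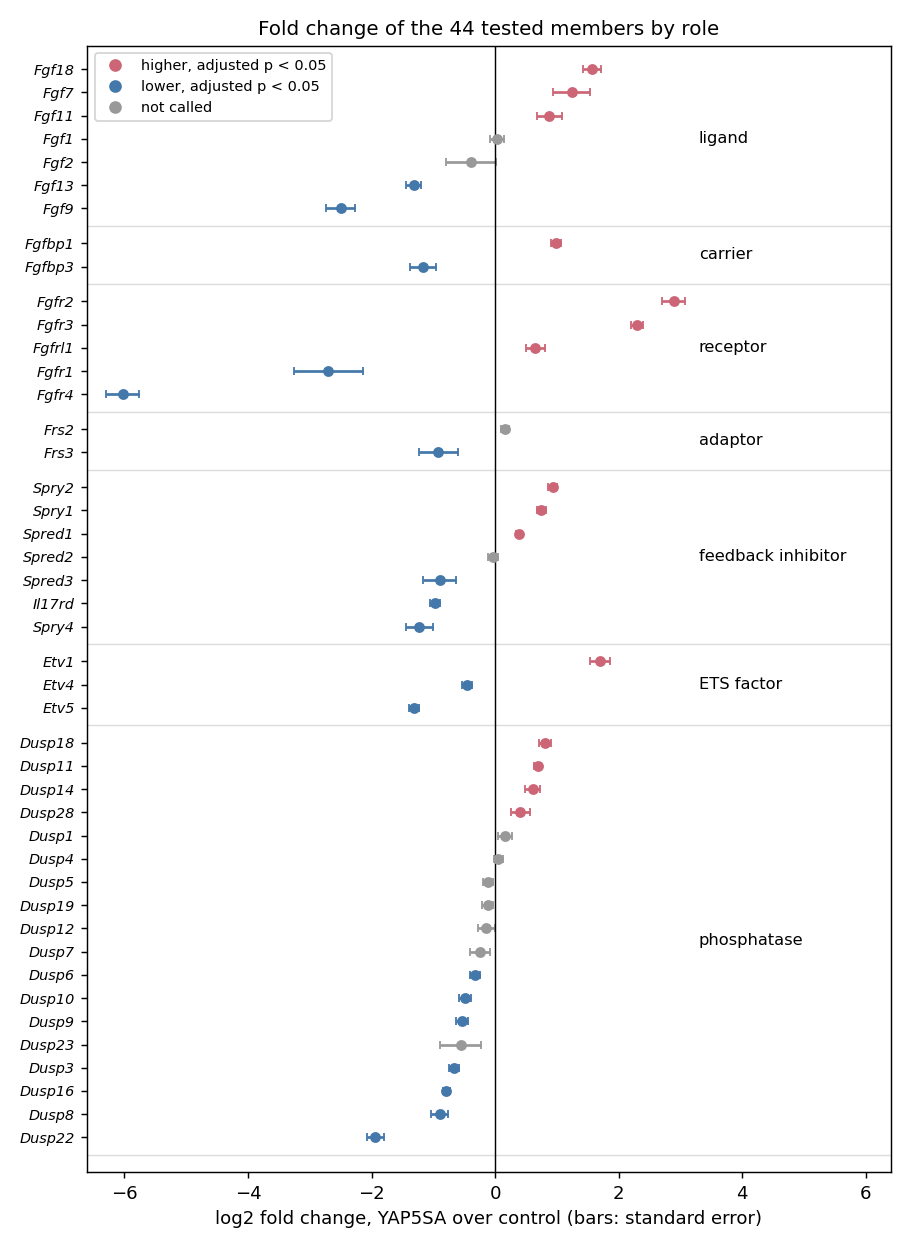
Log2 fold change of YAP5SA over control for the 44 tested genes (x axis), grouped by role (y axis), with bars for the standard error and colour for the call at an adjusted p under 0.05. Fgfr4 lies farthest to the left at −6.03 and Fgfr2 farthest to the right at 2.89, while most phosphatases lie within 1 of no change.

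Fgfr4, the FGF receptor best known from liver, measured 13.3, 11.2, 12.5 and 16.8 CPM in controls 1 to 4 and 0.194, 0.0552, 0.257 and 0.294 CPM in YAP5SA 1 to 4. Every control lay far above every YAP5SA library, where the gene had 5 counts or fewer. Fgfr4 fell 65.4-fold (log2 fold change −6.03 ± 0.27 SE, adjusted p = 2.09e-12). Fgfr3, a receptor that is expressed in many epithelia and in growth plate cartilage, measured 13.8, 14.8, 13.2 and 10.5 CPM in the controls and 60.9, 69.7, 70.8 and 57.1 CPM in YAP5SA. The groups did not overlap, and Fgfr3 rose 4.91-fold (log2 fold change 2.30 ± 0.10 SE, adjusted p = 1.55e-12). Fgfr2, whose epithelial splice form binds ligands of the mesenchyme such as FGF7 and FGF10, had 2.08, 1.35, 1.58 and 1.65 CPM in controls and 12.2, 9.44, 11.7 and 16.0 CPM in YAP5SA. The lowest YAP5SA library was again well above the highest control, and Fgfr2 rose 7.42-fold (log2 fold change 2.89 ± 0.19 SE, adjusted p = 6.46e-10). Counts per gene do not separate the splice forms of Fgfr2. In the gene models of GENCODE M21, its exons overlap those of Ctbp2 on the same strand over 3.04% of their length. Ctbp2 had 1086 to 1742 counts in a library, against 22 to 272 of Fgfr2. The part of this overlap in the level of Fgfr2 was not tested.

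Fgfr1, the receptor typical of mesenchyme, was low throughout, at 1.39, 1.95, 0.814 and 1.58 CPM in controls and 0.0647, 0.221, 0.579 and 0 CPM in YAP5SA. It fell 6.50-fold (log2 fold change −2.70 ± 0.56 SE, adjusted p = 0.000695), with 14 counts over the 4 YAP5SA libraries together. YAP5SA 3 held 9 of these counts, and without it the log2 fold change was −3.76 (adjusted p = 0.000103). The summed level of the mesenchymal markers moved the same way, and its part in the fall of Fgfr1 was not tested. Fgfrl1, a receptor-like protein that binds FGFs but lacks the kinase domain, had 5.75, 5.58, 6.97 and 6.98 CPM in controls and 7.38, 12.4, 9.59 and 10.2 CPM in YAP5SA, and rose 1.57-fold (adjusted p = 0.00185). All YAP5SA libraries were above all controls, YAP5SA 1 by a small margin.

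**Figure D2:**
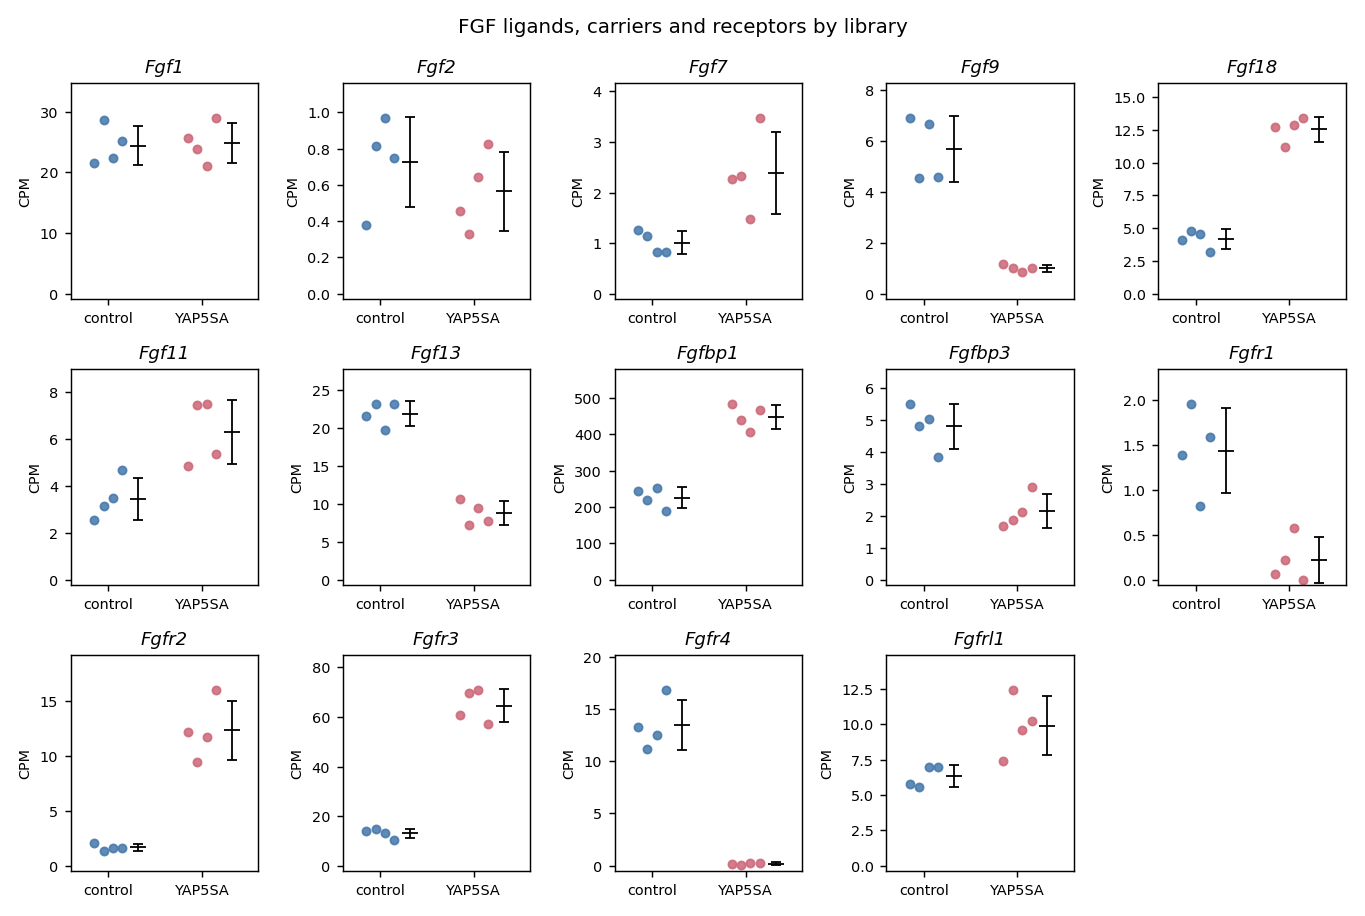
Level in CPM (y axis, from 0, with its own scale in each panel) of FGF ligands, carriers and receptors in the 4 control and 4 YAP5SA libraries (points), with the mean and SD of each group (black bars). Fgfr4 falls to nearly 0 in YAP5SA (0.0552 to 0.294 CPM), Fgfr2 and Fgfr3 stand above all controls, and Fgf1 and Fgf2 overlap between groups.

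Levels of different genes were compared per kilobase of annotated exon. In controls Fgfr4 led with 3.79 ± 0.68 CPM per kilobase, followed by Fgfr3 with 1.83 ± 0.26, and Fgfr2 (0.161 ± 0.030) and Fgfr1 (0.145 ± 0.048) overlapped each other. In YAP5SA the order was Fgfr3 with 9.03 ± 0.93, then Fgfr2 with 1.19 ± 0.265, and last Fgfr4 (0.0566 ± 0.0297) and Fgfr1 (0.0219 ± 0.0262), whose ranges overlapped. The 4 receptor kinases together summed to 6.02, 5.54, 5.61 and 6.53 CPM per kilobase in controls and to 9.76, 10.7, 11.2 and 9.61 in YAP5SA. The sum was thus higher in every YAP5SA library, and Fgfr3 made up 83.0% to 91.1% of it, after 22.5% to 37.3% in controls. Fgfr4 held 56.8% to 72.6% of the sum in controls and 0.146% to 0.865% in YAP5SA. These shares depend on the length used. With the longest protein-coding transcript of each gene, Fgfr4 took 44.5% to 61.5% and Fgfr3 30.1% to 46.2% of the sum in controls, so that Fgfr3 was ahead of Fgfr4 in control 2, while Fgfr3 kept 78.0% to 87.9% in YAP5SA.

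**Figure D3:**
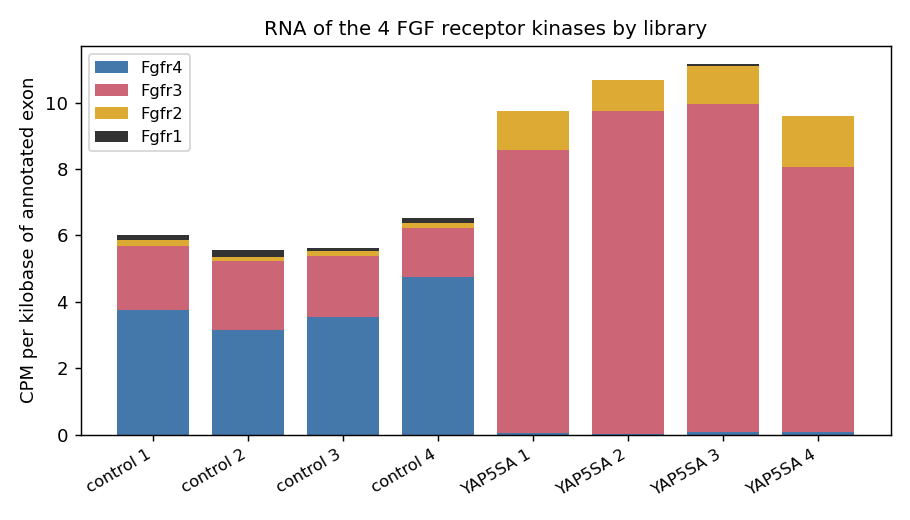
RNA of the FGF receptor kinases in CPM per kilobase of annotated exon (y axis) in each library (x axis), stacked by receptor. Fgfr4 forms the largest part of each control bar and Fgfr3 the largest part of each YAP5SA bar, and the YAP5SA bars reach 9.61 to 11.2 against 5.54 to 6.53 in controls.

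The promoters of the 3 receptors that carried this exchange are shown because the genes moved in opposite directions. They are windows of 300 bases, from 250 before to 50 after the start given by RefSeq on mouse build GRCm38.p6, read in the direction of the gene. Fgfr4 lies at chr13:55152568-55152867 on the plus strand, Fgfr3 at chr5:33721474-33721773 on the plus strand (the first of its 2 listed starts) and Fgfr2 at chr7:130266759-130267058 on the minus strand. Capitals mark the words searched on both strands, GGAATG (bound by TEAD factors, the DNA-binding partners of YAP), TGANTCA (AP-1) and CCGGAA (ETS factors).
Fgfr4: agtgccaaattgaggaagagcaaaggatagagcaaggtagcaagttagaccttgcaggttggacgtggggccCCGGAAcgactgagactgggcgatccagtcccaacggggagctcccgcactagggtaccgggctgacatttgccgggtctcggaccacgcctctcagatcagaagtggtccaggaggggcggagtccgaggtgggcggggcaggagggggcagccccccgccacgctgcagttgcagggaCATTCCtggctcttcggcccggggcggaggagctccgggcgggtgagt
Fgfr3: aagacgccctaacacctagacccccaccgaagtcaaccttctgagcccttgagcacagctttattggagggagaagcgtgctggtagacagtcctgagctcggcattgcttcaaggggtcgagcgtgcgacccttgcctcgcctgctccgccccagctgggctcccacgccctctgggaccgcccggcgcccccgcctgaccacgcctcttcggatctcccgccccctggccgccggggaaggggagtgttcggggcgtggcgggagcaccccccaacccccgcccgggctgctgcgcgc
Fgfr2: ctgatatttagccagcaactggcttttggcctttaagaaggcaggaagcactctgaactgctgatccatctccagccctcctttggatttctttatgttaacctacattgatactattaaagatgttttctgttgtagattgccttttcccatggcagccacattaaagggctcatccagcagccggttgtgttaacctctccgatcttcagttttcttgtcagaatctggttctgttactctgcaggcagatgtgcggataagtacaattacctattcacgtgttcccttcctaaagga
The Fgfr4 window holds 1 ETS word, which starts at base −178 from the start site, and 1 TEAD word on the opposite strand, which starts at base 3 after it. In the windows of Fgfr3, its other start included, and Fgfr2 these letters do not occur. The bases G and C make up 65.3% of the Fgfr4 window, 69.7% of the Fgfr3 window and 43.7% of the Fgfr2 window. Of the 66 genes, 50 were found in the promoter table, with 62 windows, of which 14.5% hold the TEAD word, 12.9% the ETS word and 4.84% the AP-1 word. Over all 32851 windows these shares are 14.7%, 14.9% and 7.81%. A word match describes the letters of a window and is not evidence of binding.

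Of 22 ligand genes, 7 were tested, of which 3 rose and 2 fell (71.4% called against 49.1% of all tested genes). Fgf9, a ligand made by gut and lung epithelium that acts on the mesenchyme, measured 6.88, 4.55, 6.67 and 4.58 CPM in controls and 1.17, 0.994, 0.837 and 1.0 CPM in YAP5SA. The groups were far apart, and Fgf9 fell 5.66-fold (log2 fold change −2.50 ± 0.23 SE, adjusted p = 5.32e-08). Fgf18, a ligand with known roles in lung and skeleton, had 4.10, 4.82, 4.58 and 3.15 CPM in controls and 12.7, 11.2, 12.9 and 13.4 CPM in YAP5SA. Its levels did not overlap either, and it rose 2.98-fold (log2 fold change 1.57 ± 0.14 SE, adjusted p = 3.05e-08). Fgf7, the keratinocyte growth factor that mesenchyme makes for epithelium, was low but higher in all YAP5SA libraries, with 1.26, 1.14, 0.814 and 0.825 CPM in controls and 2.27, 2.32, 1.48 and 3.47 CPM in the YAP5SA libraries (log2 fold change 1.24 ± 0.30 SE, adjusted p = 0.00244). The mesenchymal markers, none counted often enough to test, summed to 1.88 to 4.36 CPM in controls and 0.718 to 1.83 CPM in YAP5SA. Their part in the level of Fgf7 was not tested. Fgf10, the other ligand of this kind, had 1 count in each group.

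Fgf1, which binds all FGF receptors, had 21.5, 28.6, 22.3 and 25.1 CPM in controls and 25.6, 23.8, 21 and 28.9 CPM in YAP5SA. The groups overlapped fully (log2 fold change 0.03 ± 0.11 SE, adjusted p = 0.85). Fgf2 was close to the limit of counting, at 0.379 to 0.967 CPM in controls and 0.331 to 0.824 CPM in the YAP5SA libraries (adjusted p = 0.458). Its exons overlap those of Nudt6 on the other strand over 9.44% of their length. Fgf13 and Fgf11 belong to the homologous factors that stay inside the cell and bind sodium channels rather than FGF receptors. Fgf13, an X-linked gene, had 21.5, 23.1, 19.7 and 23.1 CPM in controls and 10.6, 7.18, 9.46 and 7.71 CPM in YAP5SA, with no overlap, and fell 2.51-fold (log2 fold change −1.32 ± 0.12 SE, adjusted p = 4.35e-08). Fgf11 went the other way, from 2.53 to 4.65 CPM over the controls to 4.85 to 7.47 CPM over YAP5SA (log2 fold change 0.88 ± 0.20 SE, adjusted p = 0.00144).

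Per kilobase of exon, the ligand genes ran in controls from Fgf13 (5.44 ± 0.40 CPM per kilobase) over Fgf1 (4.46 ± 0.59), Fgf18 (3.51 ± 0.62), Fgf9 (1.22 ± 0.28), Fgf11 (1.13 ± 0.29) and Fgf7 (0.311 ± 0.069) to Fgf2 (0.107 ± 0.037). Fgf13 and Fgf1, Fgf1 and Fgf18, and Fgf9 and Fgf11 overlapped. In YAP5SA, Fgf18 led at 10.6 ± 0.8 CPM per kilobase, clear of Fgf1 at 4.55 ± 0.61. Fgf13 (2.18 ± 0.39) and Fgf11 (2.06 ± 0.45) overlapped each other, Fgf7 stood at 0.734 ± 0.253, and Fgf9 came to 0.215 ± 0.029, below all of them and above Fgf2 (0.083 ± 0.032).

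Both carriers of FGFs changed. Fgfbp1, a secreted protein that releases FGFs from the matrix, had the highest level per kilobase of all members in both groups (99.8 and 198.1 CPM per kilobase), with 244.3, 220.0, 251.3 and 187.7 CPM in controls and 482.8, 438.3, 406.0 and 465.8 CPM in YAP5SA. It rose 1.98-fold (log2 fold change 0.99 ± 0.08 SE, adjusted p = 7.86e-08), without overlap of the groups. Fgfbp3, its relative, had 5.49, 4.82, 5.04 and 3.83 CPM in controls and 1.68, 1.88, 2.12 and 2.89 CPM in YAP5SA, and fell 2.24-fold (adjusted p = 0.000142). Of the adaptors that tie the receptors to RAS, Frs2 had 62.0, 60.1, 66.2 and 74.3 CPM in controls and 70.8, 69.4, 77.9 and 75 CPM in YAP5SA. The groups overlapped (log2 fold change 0.16 ± 0.07 SE, adjusted p = 0.0667), and its call depends on the scaling, since Frs2 passed with library size alone (adjusted p = 0.0272). Frs3 was near the limit, at 1.45, 1.35, 2.14 and 1.35 CPM in controls and 0.647, 0.552, 1.09 and 1.06 CPM in the YAP5SA libraries (log2 fold change −0.92 ± 0.32 SE, adjusted p = 0.0234). It no longer passed without control 3 (adjusted p = 0.101), YAP5SA 1 (0.0651) or YAP5SA 2 (0.0806).

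The PEA3 factors, which serve as readouts of FGF and ERK activity in many embryonic tissues, split. Etv5 measured 96.9, 82.5, 82.4 and 94.0 CPM in controls and 31.8, 34.9, 39.6 and 37.0 CPM in YAP5SA. All YAP5SA libraries were below all controls by a wide margin, and Etv5 fell 2.48-fold (log2 fold change −1.31 ± 0.08 SE, adjusted p = 1.22e-10). Etv4 had 27.7, 25.3, 23.9 and 26.5 CPM in controls and 21, 18.6, 18.3 and 17.8 CPM in YAP5SA, a smaller fall without overlap (log2 fold change −0.45 ± 0.08 SE, adjusted p = 0.000253). Etv1 rose 3.24-fold from a low level, with 2.59, 2.49, 3.05 and 3.15 CPM in controls and 7.83, 9.44, 7.92 and 11.3 CPM in the YAP5SA libraries (adjusted p = 1.15e-07). The order per kilobase stayed Etv5, Etv4, Etv1 in both groups, with no overlap between neighbours, at 21.7, 8.33 and 0.212 CPM per kilobase in controls and 8.74, 6.09 and 0.686 in YAP5SA.

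Of the 7 feedback inhibitors, 3 rose and 3 fell, while 1 missed the threshold, so that 85.7% were called against 49.1% of all tested genes. Spry2, the Sprouty gene with the highest level per kilobase, had 24.6, 24.8, 23.7 and 27.5 CPM in controls and 50, 45.3, 46.6 and 48.9 CPM in YAP5SA, a 1.90-fold rise (log2 fold change 0.93 ± 0.07 SE, adjusted p = 5.28e-09). Spry1 moved alongside, from 15.9, 16.5, 16.2 and 17.5 CPM to 27.1, 28.2, 29.1 and 26.7 CPM (1.69-fold, adjusted p = 3.09e-07). In both genes the libraries of a group lay close together and the groups far apart. Spry4 went against them, with 4.29, 4.06, 3.05 and 4.88 CPM in controls and 1.29, 1.6, 1.93 and 2.06 CPM in YAP5SA, a 2.34-fold fall (log2 fold change −1.23 ± 0.22 SE, adjusted p = 0.000172). The exons of Spry1 overlap those of Gm42922 on the other strand over 24.4% of their length, and that gene had at most 10 counts in a library.

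The Spred proteins inhibit RAS together with neurofibromin. Spred1, the highest of them per kilobase, had 104.6, 104.8, 96.9 and 109.7 CPM in controls and 131.6, 137.6, 136.1 and 138.7 CPM in YAP5SA, and its rise was small but clear of the spread (log2 fold change 0.39 ± 0.05 SE, adjusted p = 7.21e-06). Spred2 overlapped between groups, at 50.3, 45.6, 50.4 and 59.9 CPM against 48.0, 50.7, 54.4 and 48.1 CPM (log2 fold change −0.03 ± 0.08 SE, adjusted p = 0.769). Spred3 was low, at 3.60, 2.44, 2.24 and 3.68 CPM in controls, and fell to 1.88, 1.99, 1.22 and 1.24 CPM in the YAP5SA libraries (log2 fold change −0.90 ± 0.26 SE, adjusted p = 0.00842). Il17rd, which encodes the membrane inhibitor Sef, fell 1.95-fold, from 36.4, 31.9, 31.3 and 31.2 CPM to 16.1, 15.7, 17.9 and 17.4 CPM (log2 fold change −0.97 ± 0.08 SE, adjusted p = 2.78e-08). Per kilobase, Spred1 led in controls (15.3 ± 0.8 CPM per kilobase) ahead of Spry2 (12.0 ± 0.8), and Spry2 (22.9 ± 1.0) led in YAP5SA ahead of Spred1 (20 ± 0.5), in both cases without overlap.

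**Figure D4:**
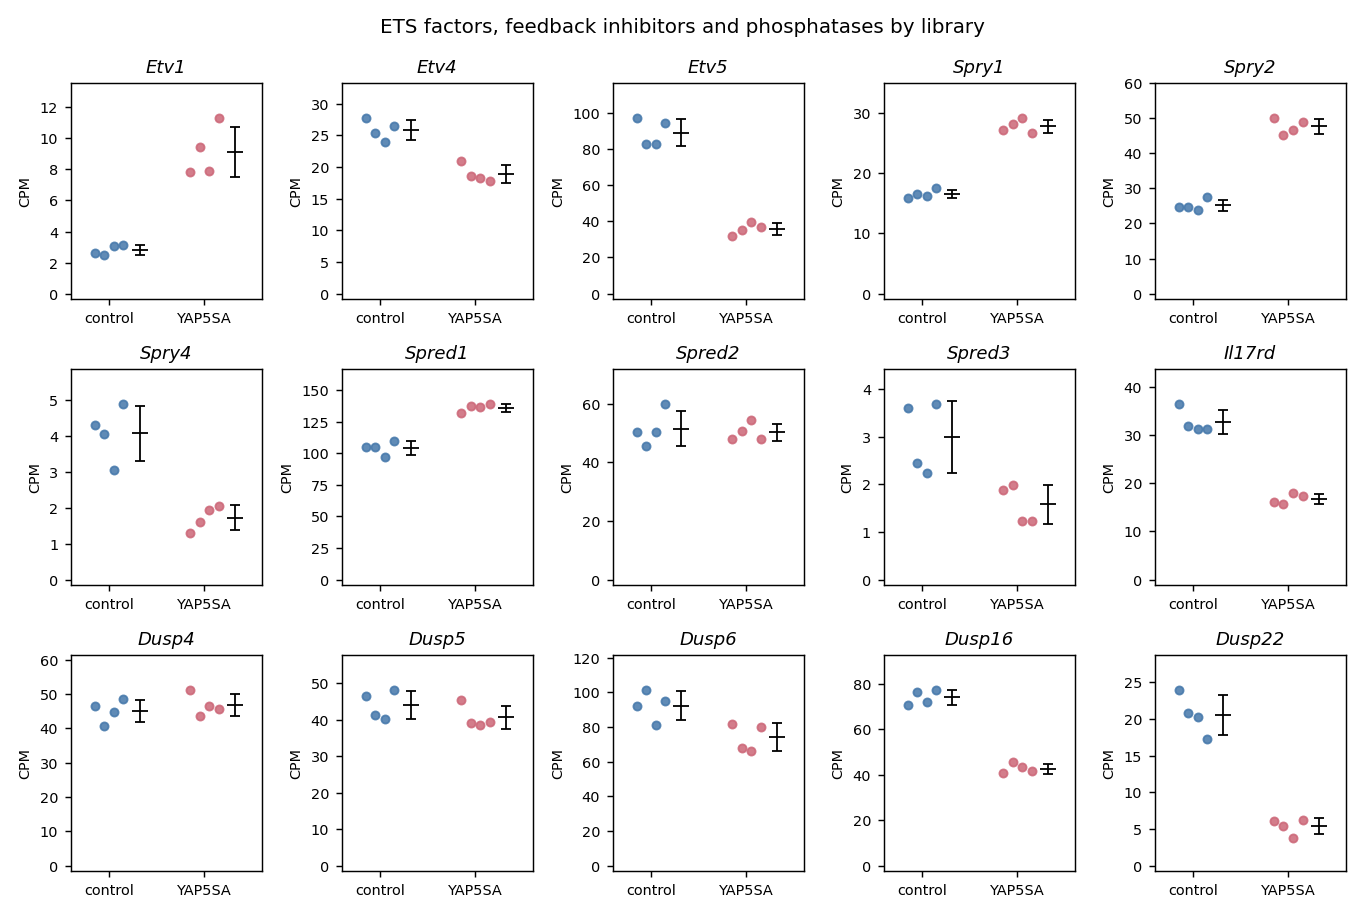
Level in CPM (y axis, from 0, with its own scale in each panel) of the ETS factors, the feedback inhibitors and 5 phosphatases in the 4 control and 4 YAP5SA libraries (points), with the mean and SD of each group (black bars). Spry1 and Spry2 stand higher in all YAP5SA libraries and Spry4, Il17rd, Etv5 and Dusp22 lower, while Spred2, Dusp4, Dusp5 and Dusp6 overlap between groups.

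Among the dual-specificity phosphatases, 18 of 25 were tested, of which 4 rose and 7 fell. This share of calls, 61.1%, is nearer to the 49.1% of all tested genes, and only Dusp22 changed by 2-fold or more. Of the 9 tested MAP kinase phosphatases, 5 fell and the other 4 missed the threshold. Thus 55.6% were called, all lower, against 49.1% of all tested genes called and 25.5% called lower. Dusp6, the cytoplasmic ERK phosphatase that FGF signalling induces in many tissues, led them per kilobase in both groups. It had 91.9, 101.2, 80.9 and 94.9 CPM in controls and 81.9, 68.1, 66.2 and 80.0 CPM in YAP5SA, so that YAP5SA 1 lay above control 3, and its fall was small (log2 fold change −0.32 ± 0.08 SE, adjusted p = 0.00329). The genes of the nuclear ERK phosphatases, Dusp4 and Dusp5, overlapped between groups, with log2 fold changes of 0.05 ± 0.07 SE and −0.11 ± 0.08 SE (adjusted p = 0.586 and 0.251). Dusp1, an early response phosphatase of p38 and JNK, ranged from 32.4 to 40.9 CPM over the controls and between 31.3 and 49 CPM over YAP5SA (adjusted p = 0.301), and passed as higher without YAP5SA 3 (log2 fold change 0.26, adjusted p = 0.0342). Dusp7 had 17.2, 9.15, 15.1 and 14.8 CPM in controls and 10.9 to 13.3 CPM in the YAP5SA libraries (adjusted p = 0.202), and passed as lower without control 2 (log2 fold change −0.42, adjusted p = 0.0054).

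Of the phosphatases that prefer p38 and JNK, Dusp8, Dusp10 and Dusp16 fell, whereas Dusp1 did not pass the test. Dusp16 had 70.9, 76.6, 72.0 and 77.3 CPM in controls and 40.6, 45.6, 43.3 and 41.6 CPM in the YAP5SA libraries (log2 fold change −0.79 ± 0.06 SE, adjusted p = 6.43e-09). Dusp8 fell from 8.77 to 12.5 CPM over the controls to 5.34 to 5.89 CPM over YAP5SA (log2 fold change −0.90 ± 0.13 SE, adjusted p = 1.61e-05), and Dusp10 from 15.2 to 19.9 CPM to 11.5 to 13.1 CPM (−0.49 ± 0.10 SE, adjusted p = 0.00068). All of these were apart from the controls in every library. Dusp9, an X-linked ERK phosphatase gene, fell from 14.7 to 18.8 CPM over the controls to 11.4 to 12.4 CPM (log2 fold change −0.54 ± 0.10 SE, adjusted p = 0.000249). It and Fgf13 were the only X-linked members tested, and 52.0% of the 454 tested X-linked genes were called.

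Atypical Dusp genes, which lack the docking domain of the MAP kinase phosphatases, went both ways, with 4 of 9 tested higher and 2 lower. This is 66.7% called, against 49.1% of all tested genes. By direction, 44.4% were higher and 22.2% lower, against 23.6% and 25.5% of all tested genes. Dusp22, linked to the JNK pathway and to T cell signalling, had 23.9, 20.8, 20.2 and 17.2 CPM in controls and 6.08, 5.36, 3.80 and 6.18 CPM in YAP5SA. The groups were far apart, and Dusp22 fell 3.83-fold (log2 fold change −1.94 ± 0.14 SE, adjusted p = 2.69e-09). Dusp3 fell 1.58-fold (adjusted p = 1.32e-06). Dusp11, a phosphatase of RNA ends, rose from 189.1 to 218.2 CPM over the controls to 302.0 to 344.0 CPM (1.61-fold, adjusted p = 1.82e-08), and Dusp18 and Dusp14 rose 1.75-fold and 1.52-fold. Dusp28 overlapped between groups at 3.61 to 5.30 and 5.09 to 6.3 CPM, with an adjusted p of 0.0458 that was lost under DESeq2 (0.0536). It was also lost without control 2, 3 or 4 (adjusted p = 0.0712, 0.151 and 0.0716) and without YAP5SA 1, 2 or 4 (0.0602, 0.121 and 0.113). Dusp12, Dusp19 and Dusp23 did not pass the test.

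Genes of the pathway outside the symbols above were read from the same fit. Of the 28 genes in the list of the RAS-ERK cascade, 6 rose and 9 fell, with a median log2 fold change of −0.02. This is 53.6% called, close to the 49.1% of all tested genes. Ksr1, a scaffold of RAF, MEK and ERK, was the gene of this list that changed at least 2-fold, from 3.28, 1.90, 2.44 and 2.78 CPM to 1.04, 1.38, 0.708 and 1.30 CPM (log2 fold change −1.21 ± 0.28 SE, adjusted p = 0.0016). Of 12 tested JNK, p38 and ERK5 kinases 3 rose and 1 fell (33.3% called against 49.1%), none by 2-fold.

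Of 12 enzymes of heparan sulfate, the chain that holds FGFs at the cell surface, 7 fell and 1 rose (66.7% called against 49.1% of all tested genes, median log2 fold change −0.35), and 5 changed at least 2-fold. Sulf1, an extracellular enzyme that removes sulfate groups from heparan sulfate, had 20.1, 18.4, 19.9 and 20.5 CPM in controls and 0.324, 0, 0.0644 and 0.471 CPM in the YAP5SA libraries (log2 fold change −6.49 ± 0.28 SE, adjusted p = 4.46e-12). Hs6st2, a sulfotransferase that adds sulfate at the position from which Sulf1 removes it, fell 70.8-fold, from 70.7, 84.5, 68.7 and 82.7 CPM to 1.55, 0.939, 0.901 and 0.942 CPM (adjusted p = 1.6e-16). In both genes every control lay far above every YAP5SA library. Sulf1 had 14 counts over the YAP5SA libraries together and passed the minimum on counts only through the controls. Sulf2 was 3.19-fold, Hs3st1 3.33-fold and the chain-building Ext1 2.07-fold lower, all called, and Ndst1 rose 1.91-fold.

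Of 10 tested co-receptors and surface partners of FGF receptors, 4 rose and 4 fell (80.0% called against 49.1% of all tested genes), 3 of them by at least 2-fold. Flrt2 and Flrt3, membrane proteins that can bind FGF receptors, moved against each other. Flrt2 rose 13.4-fold, from 3.41, 3.09, 2.90 and 3.98 CPM to 44, 45.6, 47.2 and 40.1 CPM (log2 fold change 3.74 ± 0.11 SE, adjusted p = 5.44e-15), and Flrt3 fell 2.15-fold, from 110.7 ± 13.7 to 51.5 ± 5.8 CPM (adjusted p = 6.47e-08). The glypican gene Gpc6 rose 2.73-fold. Klb, the co-receptor with which FGFR4 binds endocrine FGFs, had 0 counts in controls and 5 in YAP5SA.

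Among 19 tested genes that respond to ERK, 4 rose and 10 fell (73.7% called against 49.1% of all tested genes, median log2 fold change −0.20). Those that changed at least 2-fold were Egr3 (4.86-fold lower), Fosl1 (3.19-fold lower), Jun (2.45-fold lower), Plaur (2.45-fold lower) and Epha4, which rose 2.44-fold. Egr3 and Fosl1 were near the limit, with 96 and 65 counts over the controls and 19 and 20 over YAP5SA. Both passed the minimum on counts only through the controls. Egr1, an immediate early gene, rose slightly, from 130.2 ± 18.3 to 165.8 ± 10.0 CPM (log2 fold change 0.35 ± 0.08 SE, adjusted p = 0.00283).

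**Figure D5:**
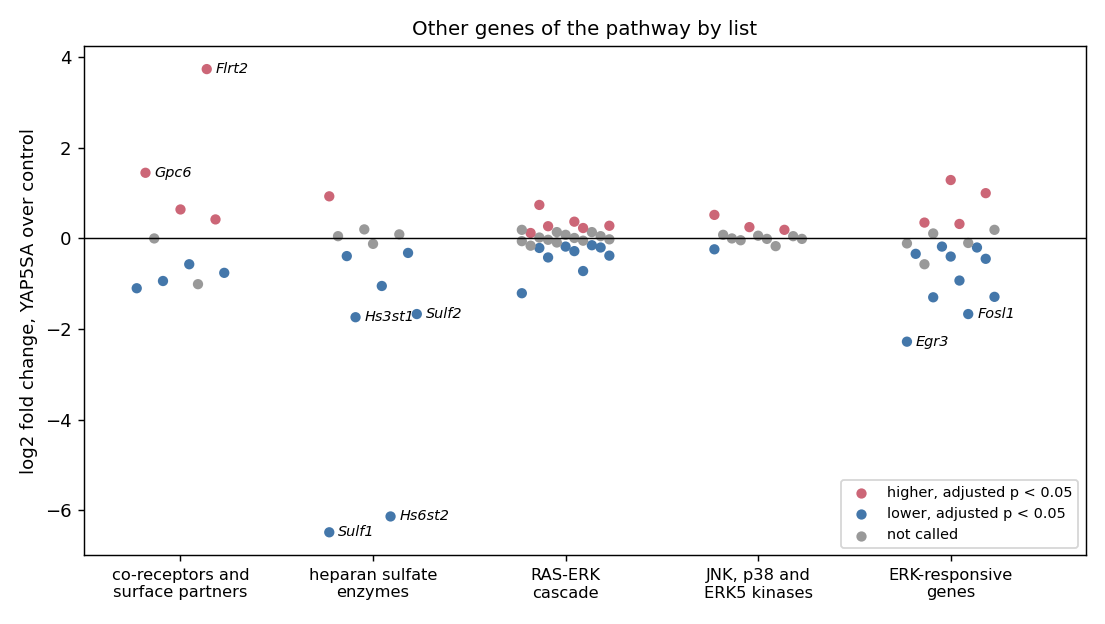
Log2 fold change of YAP5SA over control (y axis) for each tested gene (points) of 5 lists of pathway genes outside the chosen symbols (x axis; the sideways spread within a list has no meaning), coloured by the call at an adjusted p under 0.05, with called genes beyond 1.4 named. In the RAS-ERK list the points reach from −1.21 (Ksr1) to 0.74 (Shc1), and Sulf1 and Hs6st2 lie below −6.

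Within groups the members varied little. The coefficient of variation of a tested member over the 4 libraries had a median of 11.6% in controls and 10.7% in YAP5SA. It was highest for Dusp23 in controls (37.1%) and for Fgfr1 in YAP5SA (119.9%), both with few counts. In the gene models of GENCODE M21, the exons of Fgfr3 overlap those of G630022F23Rik on the other strand over 13.9% of their length. That gene had between 0 and 5 counts in a library, against 140 to 1262 of Fgfr3.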

How the data were processed

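The values used are read counts per gene as the authors deposited them, whole numbers that are not normalized. The submitters' processing notes name cutadapt, HISAT2 2.0.1, HTSeq 0.6.1 and the build mm9. For the annotation release, the counting options and strand the entry is: not given in the sources used here. Therefore reads of overlapping genes cannot be told apart. The 2639 of 56691 rows without a gene name (0.190% to 0.221% of counts) were left out, and 959 rows sharing 77 symbols were summed.

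Genes were kept by filterByExpr (minimum count 10, minimum total 15), scaled by TMM and tested across all 14058 genes kept with edgeR 4.0.16 in R 4.3.3 (robust quasi-likelihood, genotype as the only term). Benjamini-Hochberg adjustment covered all tested genes, with calls at 0.05. Each standard error was taken as the size of the log2 fold change over the root of its F statistic. Lengths and chromosomes come from GENCODE M21 by symbol, promoters from RefSeq on GRCm38.p6. Neither is the build of the counts. Floors of 3 counts cover counting error only.

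The genes and lists were chosen with earlier results of these data known. Values per library were given, by rule, for called members with a log2 fold change of at least 1 in size and for the receptors, Spry, Spred, Il17rd, Etv and Frs genes. Pathway genes called at the same size were named. Values per library of other genes were added after they were seen. The test was checked on simulated counts. It recovered 64.2% of 67 changes of 1.5-fold, 94% of 67 changes of 2-fold and 100% of 66 changes of 4-fold. Of its calls, 6.52% were false. Only these genes were changed among the 13892 tested, whereas 49.1% of all tested genes were called in the data. Genes of the lowest levels were not changed. These shares therefore cannot be carried over to the calls in the data or to genes near the limit of counting. Alternatives were DESeq2 1.42.0, other scalings and filters, a replicate block and leaving out each library.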

Additional observations from a re-analysis of the deposited data

Results flagged for a closer look

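Of 88 groups of 4 libraries examined, 4 held a library far from the other 3. Chance alone flags about 1 group in 20. Il17rd was at 36.4 CPM in control 1, against 31.2 to 31.9 CPM in the other controls. Frs3 was at 2.14 CPM in control 3, against 1.35 to 1.45 CPM. Dusp12 was at 6.53 CPM in control 4, against 8.08 to 8.40 CPM. Dusp5 was at 45.5 CPM in YAP5SA 1, against 38.5 to 39.5 CPM. Without control 3, Frs3 had a log2 fold change of −0.73 and did not pass the test (adjusted p = 0.101, edgeR). Il17rd stayed called without each library in turn.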

How the results depend on the processing

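Of the 33 called members, 31 stayed called in the same direction under every alternative that could test them, Frs3 and Dusp28 being the exceptions. With a minimum count of 30, 5 members were not tested (Dusp23, Fgf2, Fgf7, Fgfr1 and Frs3). Leaving out each library gave 14 to 16 members called higher and 17 to 19 called lower. Without the filter on low counts they were 15 and 18, with Dusp28 lost (adjusted p = 0.0601) and Frs2 gained. Members called under DESeq2 were 14 higher and 18 lower, and with a threshold of 0.01 they were 14 and 17. With the replicate block, 14 members were called higher and 18 lower, Dusp28 being lost (adjusted p = 0.0614). Same-numbered libraries did not deviate together (correlations of −0.204, −0.11, 0.0306 and −0.0487). Differently numbered libraries gave −0.341 to 0.228, a range that covers these values. No pairing was seen, but these correlations cannot decide whether the numbers mark a shared source. Members that were not called changed sign in some fits without a library. Fgf1 had −0.04 without control 1, −0.02 without control 3 and −0.06 without YAP5SA 4, and Spred2 had 0.05 without control 4. Over all fits without 1 library, Fgf1 ranged from −0.06 to 0.11 and Spred2 from −0.09 to 0.05. Frs2 passed with library size alone, upper-quartile scaling, no filter, or without control 4 (adjusted p = 0.0272, 0.0477, 0.0307 and 0.0032). Levels per kilobase with the longest coding transcript were chosen after seeing the data. They put Fgfr3 at 39.8% and Fgfr4 at 51.7% of the receptor sum in controls, after 31.2% and 63.6% with all exons. Depth limits the low genes most. Fgf2 had 6 to 19 counts in a library and Fgfr1 at most 9 in YAP5SA.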
